A study of Homo sapiens with 11 samples.

Results

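The 29 genes described here encode proteins of endoplasmic reticulum (ER)-associated degradation (ERAD), and they were chosen by name from the known parts of this pathway, as 29 of 20033 protein-coding genes. The data were chromatin immunoprecipitation sequencing (ChIP-seq) peak lists from CFPAC1 and HPAF2, established human lines of pancreatic ductal adenocarcinoma, with 2 libraries in each of 5 groups. The MYRFKO group was H3K27ac in 1 CFPAC1 clone, isolated by dilution after infection with lentiCRIPSv2 carrying wild-type Cas9 and a guide RNA against MYRF. The MYRFWT group was H3K27ac in 1 CFPAC1 clone isolated by dilution after infection with lentiCRIPSv2. FOS was mapped in a CFPAC1 clone with the same description as the MYRFWT clone, and the labels do not state whether it was that clone. MYRF was mapped with a home-made antibody in the original CFPAC1 and HPAF2 lines, which carried no plasmid per the labels. Since each genotype was 1 clone, the clone and the MYRF status cannot be told apart. The labels do not say that the libraries of a group came from separate cultures, so a p-value here measures the spread between these libraries, which may be technical.

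ERAD removes misfolded proteins from the ER. Lectins and mannosidase-like proteins of the ER mark and recognise misfolded glycoproteins, a membrane ubiquitin ligase complex built around SYVN1 and SEL1L moves them out and tags them with ubiquitin, and the ATPase p97, encoded by VCP, pulls them into the cytosol for the proteasome. Many ERAD genes are targets of the unfolded protein response, whose factors ATF6 and XBP1 bind short promoter elements. MYRF is made as an ER membrane protein that cuts itself and sends its amino-terminal part to the nucleus as a transcription factor, and the title of the study connects it with ER homeostasis. FOS is a subunit of the dimeric factor AP-1, and H3K27ac is a histone acetylation found at active promoters and enhancers.

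Each gene was given a window of its GRCh38 span extended by 20 kb on both sides, and a peak belonged to a gene when its summit fell in that window. All 29 ERAD genes had H3K27ac in both MYRFWT lists, and they were set beside the other 16099 protein-coding genes for which this held. The median window measured 69.1 kb for ERAD genes and 68.5 kb for the other genes. The MYRFKO lists held 107586 and 110498 H3K27ac peaks over 87.9 and 92.9 Mb, and the MYRFWT lists 116466 and 109352 peaks over 101.0 and 95.2 Mb. The FOS lists held 29087 and 36349 peaks, and the 4 MYRF lists between 3702 and 4743. All 8 ductal marker genes were acetylated in both libraries of both clones. So were 5 of 13 markers of other cell types, namely PTPRC, CD3E, PECAM1, VWF and COL1A1. GCG was added in the MYRFKO clone and CPA1 in the MYRFWT clone, while DCN, ALB, INS and PRSS1 had no acetylated base in any library. No library measured MYRF in the MYRFKO clone, so the edit was not checked by these data. Acetylation around the MYRF gene covered 11283 and 13761 bp in MYRFKO libraries and 11044 and 16297 bp in MYRFWT libraries, overlapping ranges.

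The promoters of 3 ERAD genes held an element of the unfolded protein response, and they are shown because the known regulation of this pathway runs through these letters. RefSeq promoters (GRCh38.p14) were at hand for 23 of the 29 genes, and the 250 bases before each gene start were searched on both strands. The elements were ERSE (CCAAT followed after 9 bases by CCACG), ERSE-II (ATTGG followed after 1 base by CCACG) and UPRE (TGACGTGG). HERPUD1, an ER membrane protein that binds the ligase complex, held ERSE-II from 117 to 107 bases before its start. The stretch searched was chr16:56931892-56932141, with the gene on the plus strand. UBE2J1, a membrane-anchored ubiquitin-conjugating enzyme, held UPRE on the opposite strand 231 to 224 bases before its start. Its stretch was chr6:89352723-89352972, with the gene on the minus strand. VCP held UPRE 189 to 182 bases before its start, in the stretch chr9:35072626-35072875, with the gene on the minus strand. Each sequence is written 5′ to 3′ on the gene's own strand, with the fixed letters of the element in capitals.
HERPUD1: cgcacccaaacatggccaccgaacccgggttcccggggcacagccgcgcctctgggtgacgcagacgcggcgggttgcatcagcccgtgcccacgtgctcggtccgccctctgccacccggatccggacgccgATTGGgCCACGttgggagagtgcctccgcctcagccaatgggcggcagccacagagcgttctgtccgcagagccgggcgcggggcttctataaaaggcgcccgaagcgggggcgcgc
UBE2J1: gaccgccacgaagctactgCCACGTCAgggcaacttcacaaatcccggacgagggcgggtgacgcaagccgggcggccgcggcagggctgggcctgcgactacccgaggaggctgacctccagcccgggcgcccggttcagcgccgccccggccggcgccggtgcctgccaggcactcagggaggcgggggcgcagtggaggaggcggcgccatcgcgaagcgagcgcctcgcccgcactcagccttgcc
VCP: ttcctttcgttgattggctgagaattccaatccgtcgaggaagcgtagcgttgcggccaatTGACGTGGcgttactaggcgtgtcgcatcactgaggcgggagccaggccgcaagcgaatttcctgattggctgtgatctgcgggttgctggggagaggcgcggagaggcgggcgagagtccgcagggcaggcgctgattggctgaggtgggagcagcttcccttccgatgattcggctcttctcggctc
ERSE-II stood in 1 of 23 ERAD promoters and 0.0771% of 12976 other promoters, UPRE in 2 of 23 and 0.724%, and the full ERSE in 0 of 23 and 0.116%. ERSE without its last base also matched HERPUD1, 83 to 66 bases before its start, against 0.324% of other promoters. At least 1 of ERSE, ERSE-II and UPRE stood in 3 of 23 ERAD promoters (13.0%) and in 118 of 12976 other promoters (0.909%). The letters CTGGCAC and CTGGTAC, the core reported for MYRF, were in 0 of 23 ERAD promoters, against 4.31% and 1.13% of the other promoters. The AP-1 letters TGANTCA were also in 0 of 23, against 4.46% of the other promoters. A match here describes letters only, and the absence of letters from this window says nothing about binding.

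A minority of ERAD genes had a MYRF peak, as did a minority of the other genes. In CFPAC1, 3 of 29 ERAD genes (10.3%) had a MYRF summit in both libraries, AUP1, FAF1 and SYVN1, against a background of 14.2% of the other genes. In HPAF2 this held for 1 of 29 (3.45%), SYVN1, against 13.1% of the other genes. SYVN1 was thus the 1 ERAD gene with MYRF in both libraries of both lines, which held for 7.76% of the other genes. Counting a summit in any MYRF library, 5 of 29 ERAD genes (17.2%) and 32.3% of the other genes had one. The shares of ERAD genes lay below those of the other genes in each of these counts, and no test over the list was made. The counts are small and all drawn from the same 5 genes, so they are not separate results. MYRF summits numbered 1.59 and 1.59 per Mb of ERAD windows in the CFPAC1 libraries, against 2.94 and 2.46 per Mb around other genes, and 0.794 and 1.19 per Mb in HPAF2, against 1.98 and 2.35. The height of a peak is given as its percentile of fold enrichment within its own list, since folds of different lists are not comparable. Among genes with a CFPAC1 summit, the strongest peak had a median percentile of 29.1 and 35.4 for ERAD genes, against 59.8 and 57.5 for the others. In HPAF2 the order differed between the libraries, with 62.0 for the 1 ERAD gene of replicate 1 against 53.7 for the others, and 40.6 for the 3 ERAD genes of replicate 2 against 53.3. The 62.0 belongs to a peak in the SYVN1 window at the starts of FAU and MRPL49, seen in HPAF2 replicate 1 alone. The SYVN1 site shared by the 4 libraries stood at 20.9 in that list. The median distance from an ERAD gene to the nearest reproducible MYRF summit was 325 kb in CFPAC1 and 474 kb in HPAF2, against 262 and 251 kb for the other genes.

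SYVN1 encodes the ubiquitin ligase at the centre of the main ERAD complex. Its MYRF site lay upstream of the gene and in no protein-coding gene. The peak was chr11:65150888-65151132 in CFPAC1 replicate 1, with its summit 16511 bp before the SYVN1 start, and chr11:65150877-65151279 in CFPAC1 replicate 2. It was chr11:65150905-65151204 in HPAF2 replicate 1 and chr11:65150932-65151301 in HPAF2 replicate 2. The authors' fold enrichment was 4.27 and 4.63 in the CFPAC1 libraries, at the 25.7 and 31.6 percentiles of their lists, and 4.16 and 7.42 in the HPAF2 libraries, at the 20.9 and 74.9 percentiles. The 4 libraries thus placed a peak on the same stretch, and HPAF2 replicate 2 ranked it highest. FOS peaks overlapped it in both FOS libraries, with folds of 11.4 and 5.48. Within 1 kb of the CFPAC1 replicate 1 summit, H3K27ac covered 1732 and 1806 of 2000 bp in MYRFKO libraries and 1796 and 1752 of 2000 bp in MYRFWT libraries. The acetylated length at this site overlapped between the clones. HPAF2 replicate 1 alone held another summit, chr11:65122095-65122366, on the divergent starts of FAU and MRPL49 and 5061 bp from SYVN1, with a fold of 6.01 and no FOS overlap.

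AUP1 encodes a lipid droplet and ER protein that recruits the conjugating enzyme UBE2G2. The MYRF peak in its window, chr2:74507387-74507646 in CFPAC1 replicate 1 and chr2:74507373-74507584 in replicate 2, sat at the start of PCGF1, a Polycomb group gene, with summits 137 and 169 bp inside it. That is 19.1 kb from AUP1, so the peak was far nearer to PCGF1. Folds were 4.52 and 4.37, HPAF2 replicate 2 had an overlapping peak with a fold of 4.95, and HPAF2 replicate 1 had none. FOS did not overlap it in either library. FOS peaks did lie nearby inside PCGF1, chr2:74506616-74507192 in replicate 1 and chr2:74506558-74507246 in replicate 2. Their summits were 19594 and 19864 bp outside AUP1, and in replicate 2 no other FOS summit fell in the AUP1 window. The surroundings of the MYRF peak were acetylated over 1973 and 1973 of 2000 bp in MYRFKO libraries and 2000 and 1929 of 2000 bp in MYRFWT libraries.

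FAF1 encodes a p97 cofactor that binds ubiquitinated cargo, and its span is the longest of the 29, with a window of 563.2 kb. Its MYRF peak lay inside the gene, 339125 bp from the start, at chr1:50620889-50621183 in CFPAC1 replicate 1 and chr1:50620875-50621259 in replicate 2. The folds were 2.76 and 5.67, at the 0.738 and 58.1 percentiles, so the 2 libraries ranked it very differently. HPAF2 replicate 2 had a peak there with a fold of 4.25, and FOS overlapped it with folds of 3.51 and 4.31. H3K27ac covered 1449 and 1704 of 2000 bp there in MYRFKO libraries and 1594 and 1672 bp in MYRFWT libraries.

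A pair of further p97-side genes had MYRF in 1 library only. UBXN4, an ER protein that docks p97, had a peak inside the gene in CFPAC1 replicate 1 (chr2:135778416-135778723, fold 4.5), with no H3K27ac within 1 kb in any of the 4 libraries and no FOS. UFD1, part of the UFD1-NPLOC4 adaptor of p97, had a peak in CFPAC1 replicate 2 (chr22:19479328-19479672, fold 4.88). Its summit lay 324 bp outside UFD1, whose strand was not at hand, and 51 bp inside the 5′ boundary of its neighbour CDC45. The H3K27ac region chr22:19477521-19480901, merged from the 4 libraries, spanned both this peak and that end of UFD1. FOS overlapped the peak with folds of 3.6 and 5.66. Beyond the window, FAF2, another p97 cofactor, had its nearest reproducible HPAF2 summit 39.9 kb away near RNF44, with folds of 4.39 and 7.5. The remaining genes, among them SEL1L, HERPUD1, all 3 derlins, all 5 lectins and mannosidase-like genes and VCP, had no MYRF summit in any of the 4 libraries. Around UBE2J1 the nearest reproducible CFPAC1 summit was 3921 kb from the gene.

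**Figure D1:**
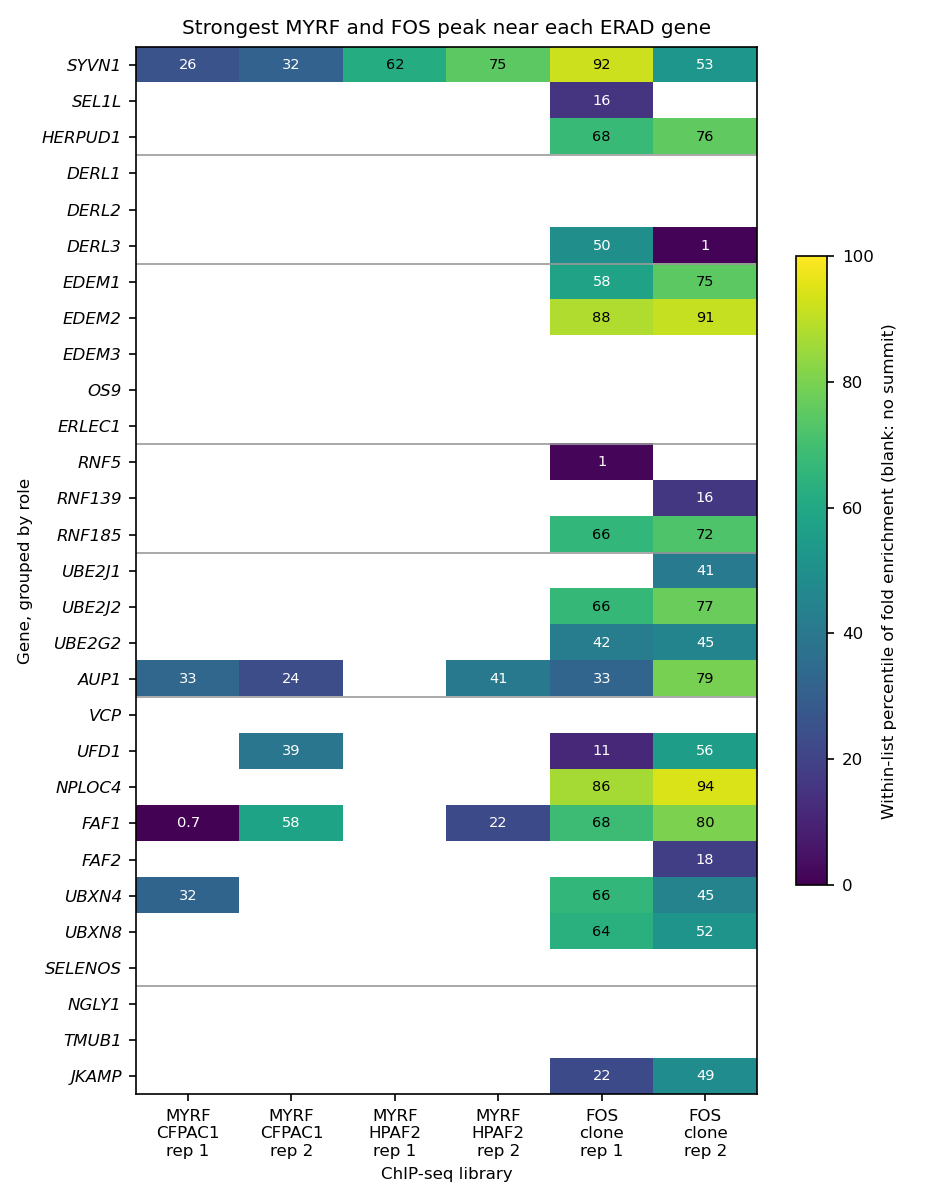
Strongest MYRF and FOS peak in the window of each of the 29 ERAD genes, by library; colour and number give the percentile of its fold enrichment within that library's list, blank cells have no summit, and grey lines separate roles. SYVN1 is filled in all 6 libraries, 24 genes are blank in all 4 MYRF libraries, and 9 genes are blank throughout. The SYVN1 value in HPAF2 replicate 1, 62.0, is that of a peak at the FAU and MRPL49 starts, and the site shared by the 4 MYRF libraries has 20.9 there.

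FOS peaks were common around ERAD genes, as around genes at large. A FOS summit in both libraries was found for 15 of 29 ERAD genes (51.7%), against 62.6% of the other genes. By role these were 2 of 3 genes of the ligase complex, 1 of 3 derlins, 2 of 5 lectins and mannosidase-like genes, 1 of 3 other ligases, 3 of 4 conjugating-enzyme genes with AUP1, 5 of 8 p97 and cofactor genes and 1 of the last 3. The derlin was DERL3, whose FOS summits lay inside SLC2A11, 18747 and 19067 bp outside DERL3, at the 49.9 and 1.17 percentiles. FOS summits numbered 13.9 and 17.1 per Mb of ERAD windows and 15.0 and 18.8 per Mb around other genes. The strongest FOS peak of a gene with one had a median percentile of 63.6 and 54.1 for ERAD genes and 69.9 and 72.8 for the others. The median distance to the nearest reproducible FOS summit was 19.6 kb for ERAD genes and 8.36 kb for the others. The count depended on the window, and with 50 kb on both sides it was 25 of 29, against 77.2% of the other genes. No FOS summit in either library was found for DERL1, DERL2, EDEM3, ERLEC1, NGLY1, OS9, SELENOS, TMUB1 and VCP.

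Ranked by the lower percentile of the 2 libraries, the highest FOS peaks stood within EDEM2 and NPLOC4, while in replicate 1 alone the site upstream of SYVN1 was higher, at the 92.2 percentile. EDEM2 belongs to the mannosidase-like proteins that trim sugars of misfolded glycoproteins, and its peak chr20:35129659-35130216 inside the gene had folds of 9.9 and 11.8, at the 88.1 and 91.4 percentiles. H3K27ac was sparse there, covering 446 and 0 of 2000 bp in MYRFKO libraries and 534 and 200 bp in MYRFWT libraries. NPLOC4, the partner of UFD1, had several FOS peaks along the gene, the highest at position 81566858 of chromosome 17 with folds of 9.48 and 13.5, at the 86.5 and 94.4 percentiles. H3K27ac was nearly continuous around it, with 1916 and 2000 of 2000 bp in MYRFKO libraries and 2000 bp in both MYRFWT libraries. The 2 genes thus had FOS peaks of like rank on unlike acetylation.

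The next 4 in this ranking were FAF1, HERPUD1, UBE2J2 and RNF185. FAF1 had its highest FOS peak inside the gene at a distance from the MYRF site, with folds of 6.67 and 8.47. HERPUD1 had FOS peaks past its end and none near its start. The peak 4573 bp beyond the gene had folds of 6.63 and 7.72, a peak 476 bp beyond it had folds of 3.14 and 5.03, and neither had an acetylated base within 1 kb in any of the 4 H3K27ac libraries. UBE2J2, a conjugating enzyme of the ER membrane, had its FOS peak 15.7 kb from the gene and 3166 bp from B3GALT6, with folds of 6.49 and 7.97. RNF185, an ER membrane ligase, had its peak inside the gene with folds of 6.47 and 7.21, where H3K27ac covered 252 and 0 of 2000 bp in MYRFKO libraries and 0 bp in both MYRFWT libraries. FOS sites within 1 kb of a table start in both libraries were found at 4 genes. They lay at SYVN1, 175 and 272 bp before it with folds of 8.41 and 3.81, at UBXN4, 338 and 377 bp before it with folds of 6.48 and 5.06, and at JKAMP, 222 and 269 bp after it with folds of 3.37 and 5.26. JKAMP had another FOS peak in both libraries, with summits 317 and 847 bp before its start and folds of 4.16 and 4.01. NPLOC4 had folds of 9.33 and 12.8 at 743 and 657 bp from its table start, which lies inside the gene.

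H3K27ac around ERAD genes was of much the same height as around other genes in both clones. All 29 genes had H3K27ac in both MYRFKO libraries, against 98.4% of the other genes, and a median of 5 summits per gene in each of the 4 libraries. The strongest H3K27ac peak of an ERAD gene stood at a median percentile of 93.1 and 91.1 in MYRFKO libraries and 92.1 and 92.1 in MYRFWT libraries. Other genes had 92.2 and 90.9 in MYRFKO libraries and 91.3 and 91.2 in MYRFWT libraries. The medians were close, and the lowest ERAD gene in any library stood at a percentile of 74.7. The share of the window covered varied widely between members. RNF5, a ligase gene in a gene-dense stretch, had 28.6% and 28.8% of its window covered in MYRFKO libraries and 28.4% and 30.3% in MYRFWT libraries. SYVN1 had 20.7% and 20.1% in MYRFKO libraries and 21.5% and 20.7% in MYRFWT libraries. SEL1L, the adaptor of SYVN1, had 2.11% and 1.73% in MYRFKO libraries and 1.65% and 1.77% in MYRFWT libraries, among the lowest.

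At gene starts every ERAD gene that could be examined was acetylated. Of the 23 genes with a start in the RefSeq promoter table, 23 had H3K27ac within 1 kb of it in all 4 libraries, against 75.1% of 12976 other genes. The median acetylated length was 1716 and 1624 of 2000 bp in MYRFKO libraries and 1665 and 1617 bp in MYRFWT libraries, while the other genes had 1335 and 1262 bp in MYRFKO libraries and 1312 and 1330 bp in MYRFWT libraries. SYVN1 and JKAMP, a membrane protein that recruits ERAD components, were acetylated over the full 2000 bp in all 4 libraries. SYVN1 had start folds of 13.3 and 13.7 in MYRFKO libraries and 12.5 and 33.4 in MYRFWT libraries, and the last of these, at the 99.8 percentile, stood apart from the other 3. FAF2 had the highest start folds in both MYRFKO libraries among these genes, 23.4 and 21.4, with 17.3 and 19.8 in MYRFWT libraries. OS9, a lectin that hands glycoproteins to SEL1L, had the shortest acetylated start, 690 and 524 bp in MYRFKO libraries and 662 and 712 bp in MYRFWT libraries. NGLY1, which removes sugar chains from ERAD substrates in the cytosol, had 1005 and 1236 bp in MYRFKO libraries and 1777 and 1434 bp in MYRFWT libraries. It was 1 of 7 starts of 23 (30.4%) with both MYRFKO libraries below both MYRFWT libraries in unscaled length, against 13.7% of the other genes. The reverse held for 4 of 23 (17.4%), EDEM3, RNF5, SEL1L and UBE2J2, against 9.75% of the other genes. The other genes include starts with no acetylation in any library, which cannot separate in either direction. The MYRFKO lists also covered less in total, 87.9 and 92.9 Mb against 101.0 and 95.2 Mb in MYRFWT lists. Unscaled length does not correct for this, so the share with lower MYRFKO libraries cannot be read as a loss at ERAD starts. In scaled windows, both MYRFKO libraries lay below both MYRFWT libraries for 1 of 29 ERAD genes. The table's start for NPLOC4 lies inside the gene, far from its end. DERL3 had no table start, and its window was acetylated only outside the gene. Its regions were chr22:23849201-23849659 and chr22:23856470-23858639, both nearest to SLC2A11.

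**Figure D2:**
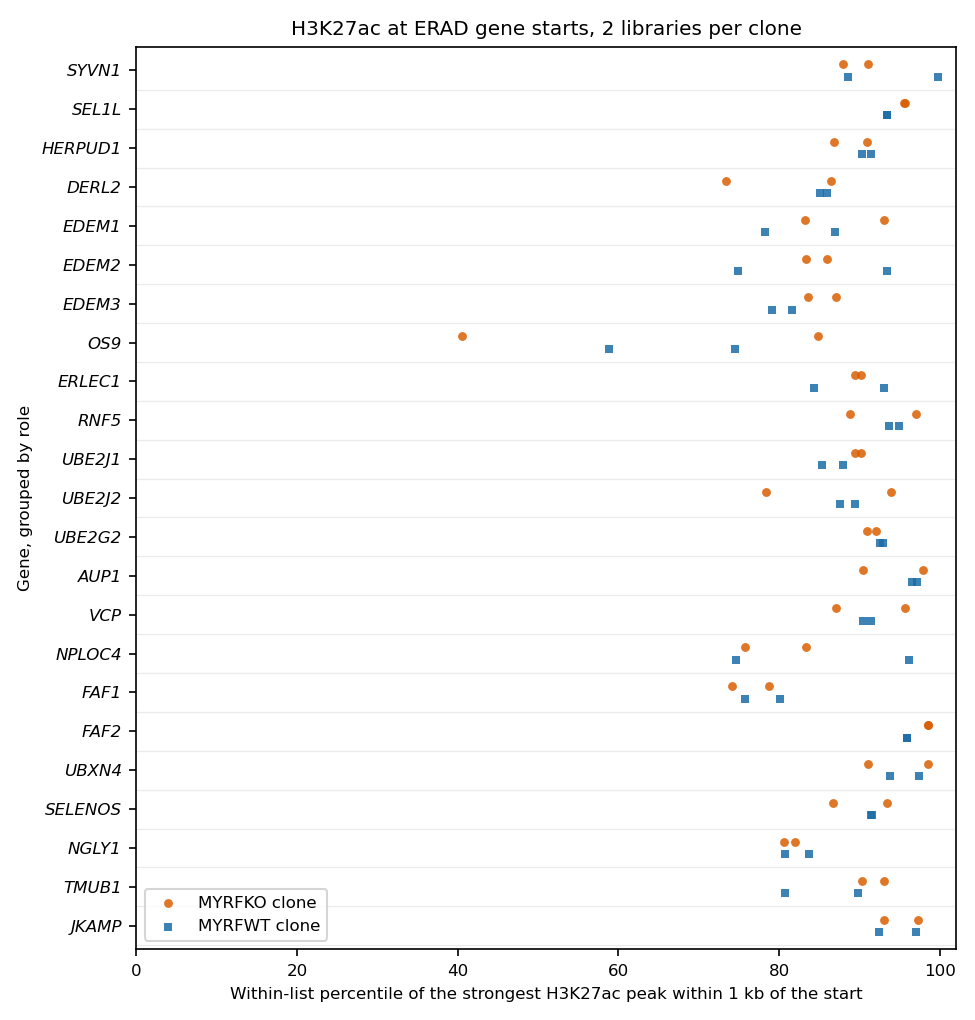
Within-list percentile of the strongest H3K27ac peak within 1 kb of the start of 23 ERAD genes, for 2 MYRFKO libraries (orange circles) and 2 MYRFWT libraries (blue squares). The medians of the 4 libraries lie between 88.8 and 91.5, and OS9 reaches the lowest value, 40.5 in MYRFKO replicate 2.

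The comparison of the clones asked whether acetylation around ERAD genes differed when MYRF was targeted, and no ERAD gene passed the test. The H3K27ac-covered length of each window was scaled to an equal total covered length in the 4 libraries and compared as log2(length + 500 bp), MYRFKO minus MYRFWT, with limma across 16128 genes. At an adjusted p of 0.05, limma called 0 of 29 ERAD genes in either direction, against 0.0% of all genes higher and 0.0% lower. At an unadjusted p under 0.05, 1 of 29 ERAD genes (3.45%) passed, UBE2J2, against 4.95% of all genes. UBE2J2 was higher in MYRFKO libraries, as were 2.49% of all genes at this threshold, and 0 ERAD genes were lower, against 2.46% of all genes. Differences of ERAD genes ran between -0.25 and 0.62 on the log2 scale with a median of 0.09, and those of other genes between -2.37 and 1.77 with a median of 0.05. The median absolute difference was 0.10 for ERAD genes and 0.13 for the others. In 24 of 29 ERAD genes (82.8%) the value was above 0, against 60.8% of the other genes, but without scaling this fell to 13 of 29, against 37.4%. The scaling moves the median of all genes by 0.1, which is 0.05 scaled and -0.05 unscaled, so signs near 0 depend on it. Both MYRFKO libraries lay above both MYRFWT libraries for 7 of 29 ERAD genes (24.1%), against 21.8% of the other genes. The reverse held for 1 of 29 (3.45%), against 11.7%.

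By role, the medians lay close together. The ligase complex had a median log2 difference of 0.11, the derlins 0.06, the lectins and mannosidase-like genes 0.06, the other ligases 0.08, p97 and its cofactors 0.12, and NGLY1, TMUB1 and JKAMP together 0.08. The conjugating-enzyme genes with AUP1 had a median of 0.09 and held both ends of the whole list, UBE2J1 at -0.25 and UBE2J2 at 0.62.

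UBE2J2 had the largest difference. Its scaled acetylated length was 8.07 and 6.28 kb in MYRFKO libraries and 4.59 and 4.33 kb in MYRFWT libraries. Both MYRFKO libraries were higher, and the groups did not overlap. The log2 difference was 0.62 with a standard error of 0.16 and a 95% interval of 0.21 to 1.03, and it did not pass limma's test across all genes (adjusted p = 0.793). At the UBE2J2 start, chr1:1272037-1273902, acetylation covered 1827 and 1825 bp in MYRFKO libraries and 1390 and 1273 bp in MYRFWT libraries. A region inside the gene, chr1:1265113-1265664, was acetylated over 450 and 531 bp in MYRFKO libraries and 0 bp in both MYRFWT libraries. The largest region of the window, chr1:1236122-1239993 next to B3GALT6, covered 3872 and 2619 bp in MYRFKO libraries and 2579 and 2396 bp in MYRFWT libraries, and it holds the FOS peak described above. The nearest reproducible MYRF summit was 95.7 kb away in CFPAC1.

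UBE2J1, its relative, leaned the other way. It had 3.96 and 3.38 kb in MYRFKO libraries and 3.97 and 4.99 kb in MYRFWT libraries, groups that barely separate, with a log2 difference of -0.25 and a standard error of 0.17. The start region itself differed little, with acetylation over 1861 and 1798 bp in MYRFKO libraries and 1917 and 1909 bp in MYRFWT libraries of chr6:89351365-89353450. A region past the other end of the gene, chr6:89321260-89322367, covered 497 and 0 bp in MYRFKO libraries and 930 and 1089 bp in MYRFWT libraries. The difference of UBE2J1 changed sign with a wider window or a stricter peak threshold.

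The other 4 genes with the largest differences were UBXN4, EDEM3, DERL1 and VCP, none of which passed limma's test (adjusted p = 0.975 for each). UBXN4 had a single acetylated region, at its start, and its scaled length was 2.73 and 2.51 kb in MYRFKO libraries and 2.05 and 1.85 kb in MYRFWT libraries (log2 difference 0.35, standard error 0.15). EDEM3, a mannosidase-like protein, had 4.12 and 3.39 kb in MYRFKO libraries and 2.89 and 2.97 kb in MYRFWT libraries (log2 difference 0.30, standard error 0.15). DERL1, a derlin that helps to move proteins out of the ER, had 2.83 and 2.74 kb in MYRFKO libraries and 2.27 and 2.22 kb in MYRFWT libraries (log2 difference 0.26, standard error 0.14). VCP had 4.68 and 4.36 kb in MYRFKO libraries and 3.29 and 4.26 kb in MYRFWT libraries (log2 difference 0.24, standard error 0.17). In each of these 4 the MYRFKO libraries were both higher, for VCP by a narrow margin, and DERL1 and VCP turned negative with a stricter peak threshold.

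The genes with a reproducible MYRF site showed small differences. SYVN1 had 10.5 and 9.63 kb in MYRFKO libraries and 9.52 and 9.64 kb in MYRFWT libraries, and its log2 difference was 0.06 with a 95% interval of -0.26 to 0.38 (limma adjusted p = 0.981). AUP1 had 5.76 and 5.37 kb in MYRFKO libraries and 5.30 and 5.56 kb in MYRFWT libraries, a log2 difference of 0.03. FAF1 had 15.0 and 15.7 kb in MYRFKO libraries and 12.8 and 15.6 kb in MYRFWT libraries, a log2 difference of 0.12. For each of the 3 genes the values of the clones overlapped. HERPUD1, with the ERSE-II promoter, had 3.37 and 2.58 kb in MYRFKO libraries and 2.78 and 2.61 kb in MYRFWT libraries, a log2 difference of 0.11 with overlapping groups.

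**Figure D3:**
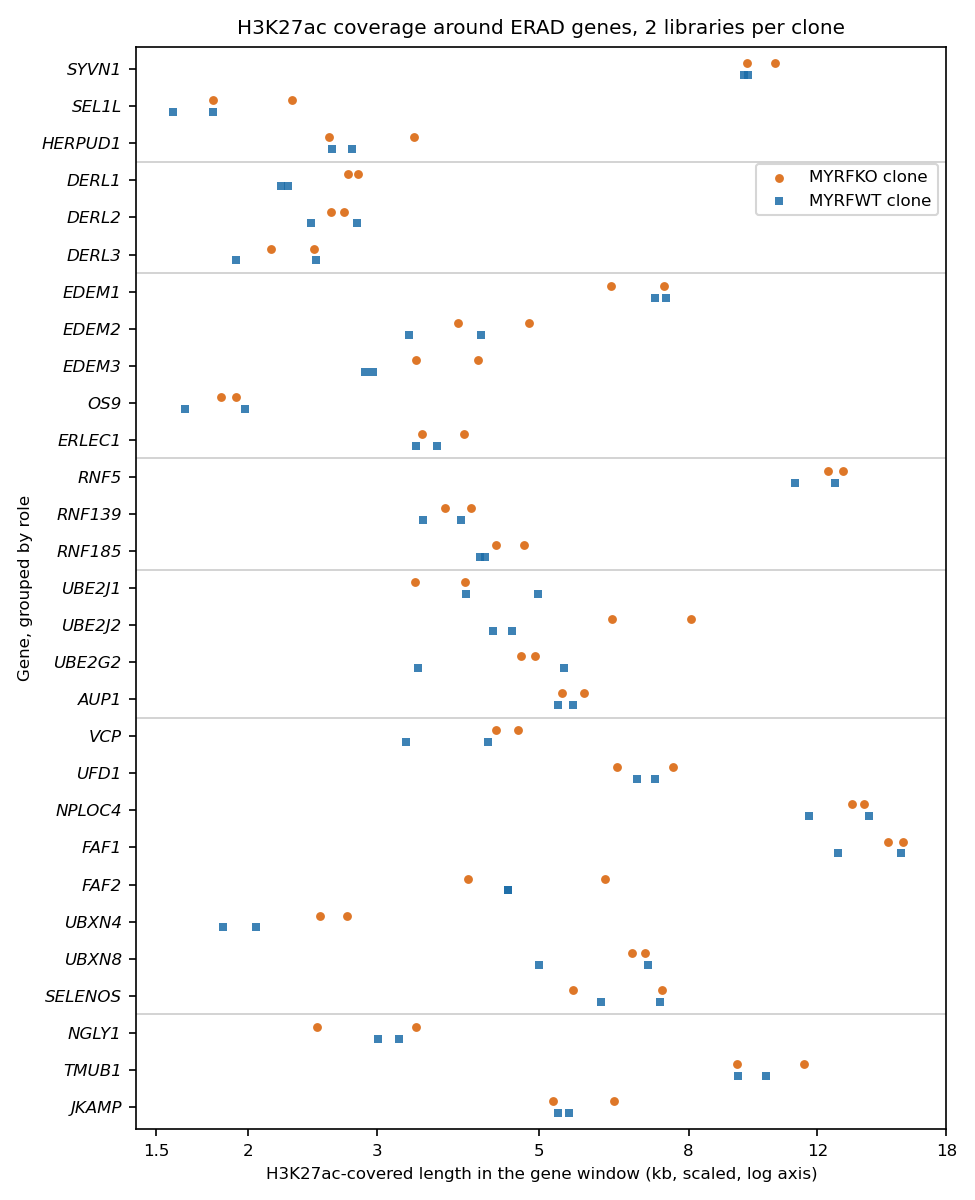
H3K27ac-covered length in the window of each ERAD gene, scaled to equal total covered length and drawn on a log axis in kb, for 2 MYRFKO libraries (orange circles) and 2 MYRFWT libraries (blue squares). The separation is widest for UBE2J2, with 8.07 and 6.28 kb against 4.59 and 4.33 kb, and small next to the range between genes.

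**Figure D4:**
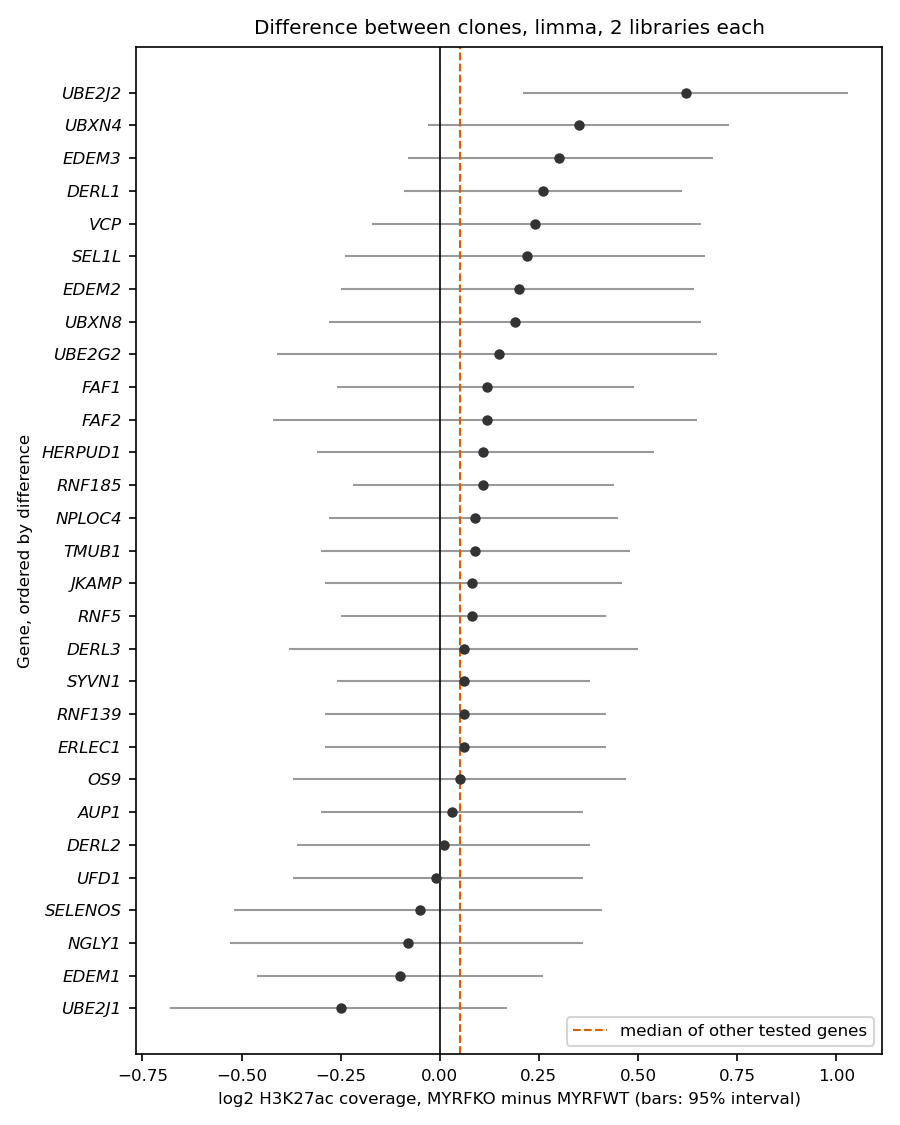
Log2 difference in H3K27ac-covered length, MYRFKO minus MYRFWT, for each ERAD gene with its 95% limma interval, ordered by size; the dashed line is the median of the other tested genes, 0.05. Only the interval of UBE2J2, 0.21 to 1.03, leaves out 0.

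Counted as separate regions, acetylation in ERAD windows was mostly shared by the clones. Peaks of the 4 libraries merged into 170 regions in these windows, of which 101 (59.4%) were present in all 4 libraries, against 43.6% of 96046 regions around other genes. Regions present in both MYRFWT libraries and neither MYRFKO library numbered 0 of 170, against 3.36% around other genes. The reverse pattern, both MYRFKO libraries and neither MYRFWT library, held for 5 of 170 (2.94%), against 1.67%. Of patterns that cut across the clones, 1 region (0.588%) was present only in replicate 1 of both clones against 1.86% around other genes, and 3 (1.76%) only in replicate 2 of both, against 1.62%.

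The 5 regions found only in MYRFKO libraries were short, and each lay by a different gene. The region inside UBE2J2 (chr1:1265113-1265664) was the highest, with folds of 6.45 and 5.14. FAF2 had chr5:176481674-176482029 with folds of 3.71 and 6.12, and EDEM2 had chr20:35109391-35109762 with folds of 3.9 and 3.47. NPLOC4 had chr17:81557570-81557920 with folds of 3.87 and 3.65, and UBE2G2, the soluble conjugating enzyme that AUP1 recruits, had chr21:44755185-44755391 with folds of 3.92 and 3.29. With a stricter peak threshold of -log10 q of at least 10, 0 regions were in this class.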

How the data were processed

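The submitters' processing notes name MACS2 2.1.0.20150731, SAMtools, Bowtie2 2.2.6 and Trimmomatic 0.38, with GRCh38. Each deposited peak carries the authors' fold enrichment (a ratio over local background), -log10 p, -log10 q and a score; which control was used for calling is not given in the sources used here. Depth is unknown, as no reads are counted in the lists, and an HPAF2 input has no list and was not analysed here. The lowest -log10 q of a list was 1.30 to 1.33, and no peak with the same interval and the same fold occurred in both libraries of a group.

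Genes came from the RefSeq table for GRCh38.p14. Fold enrichment was used to rank peaks within a list. Merged peaks gave covered lengths, compared with limma 3.58.1 (trend, Benjamini-Hochberg adjustment, threshold 0.05) in R 4.3.3; summaries used pandas 2.3.3, numpy 2.4.6 and matplotlib 3.10.9 under Python 3.11.15. The scripts were tested on simulated data. With 2 libraries against 2, an exact permutation test cannot go below p = 0.333. Groups of 2 allow no outlier test.

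The ERAD genes, the 46 other ERAD-related genes and the rules were chosen with earlier results of these data known. Full values are given for genes with MYRF in both libraries of a line, the 6 with the highest FOS percentile (lower of both libraries), any called by limma, and the 6 with the largest absolute H3K27ac difference; genes named beside these illustrate extremes, were chosen after their values were seen, or fill the role groups. Other ERAD-related genes are named only where MYRF was found in both libraries of a line. Alternatives covered the window, summit or overlap, the q threshold, the pseudocount, scaling, filters, the replicate block and leaving out each library.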

Additional observations from a re-analysis of the deposited data

How the results depend on the processing

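Peak lists without reads limit these results to presence and covered length. The ERAD genes with CFPAC1 MYRF in both libraries, 3 in all, were 1 with windows of 5 kb and 0 at a -log10 q of at least 10 (other genes 10.7% and 5.69%), and 4 with either library alone. The HPAF2 count of 1 became 0 with 5 kb, 2 with 50 kb and 0 at the stricter q (9.73%, 20.1% and 5.96% of other genes), and lay between 1 and 3 with 1 library left out, 3 without replicate 1 (18.4%). The FOS count of 15 became 25 with 50 kb and 7 at the stricter q (77.2% and 37.1%), and 17 to 18 with 1 library left out.

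Of all genes, limma called 0 in the coverage comparison, 16 without the filter on low values, and 0 to 2 with 1 library left out (2 without MYRFKO replicate 1, where the lone library is assumed to vary like the others). It called 0 ERAD genes under all 15 alternatives. ERAD genes with a positive difference numbered 24, 13 without scaling, and 16 to 25 with 1 library left out, and the median of ERAD genes ran between -0.02 and 0.15. UBE2J2 stayed between 0.42 and 0.79, with limma adjusted p between 0.215 and 1. UBE2J1 turned to 0.05 with 50 kb and to 0.02 at the stricter q, where DERL1 turned to -0.28 and VCP to -0.25; the cause was not tested.

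Regions found only in MYRFWT libraries, 0 in ERAD windows, were 1 at the stricter q, 1 with 50 kb, 4 when 50% or more of a region had to be covered (around other genes 3.55%, 3.39% and 4.51%), and 10 to 22 with 1 library per clone left out. They were 22 of 170 without replicate 1, against 16.2% around other genes, and 10 of 170 without replicate 2, against 19.8%. Regions found only in MYRFKO libraries, 5 in all, were 0 at the stricter q, 3 with 5 kb, and 18 to 25 with 1 library per clone left out (18 without replicate 1, against 14.3% around other genes, and 25 without replicate 2, against 12.6%).

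With 2 libraries per clone, these data cannot decide whether the replicate numbers pair the libraries. The differences between replicates of the 2 clones correlated at -0.179 over 16128 genes. With the replicate block limma called 0 genes, and 627 had an unadjusted p under 0.05, against 799 without it. The crossed pairing, chosen after seeing the data, also called 0 genes, and 1217 had an unadjusted limma p under 0.05.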

Other observations

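Another 46 genes tied to ERAD, such as signal peptide peptidase, deubiquitinases and further ligases and chaperones, were examined in the same way. All 46 had H3K27ac in both libraries of both clones. In CFPAC1, 6 of 46 (13.0%) had MYRF in both libraries, against 14.2% of the genes outside the 29, and in HPAF2 5 of 46 (10.9%), against 13.1%. FOS was found in both libraries for 24 of 46 (52.2%), against 62.6%. limma called 0 of the 46 genes between the clones, and their median log2 difference was 0.11.

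Of those with MYRF in both libraries of a line, HM13, the signal peptide peptidase, had the strongest HPAF2 site, at chr20:31572775-31573160 in HPAF2 replicate 1, 3410 bp past the gene. Its folds were 10.1 and 10.5 in the HPAF2 libraries, at the 87.1 and 87.7 percentiles, and 6.79 and 5.4 in the CFPAC1 libraries, above any MYRF peak in an ERAD window in HPAF2. A neighbouring site inside HM13 had folds of 4.94 and 9.26 in HPAF2 and 3.97 and 4.93 in CFPAC1. HM13 had a log2 H3K27ac difference of -0.03 with a standard error of 0.17 (limma adjusted p = 0.991). TMEM129, an ER membrane ubiquitin ligase, had MYRF 6435 bp from the gene with folds of 5.52 and 6.78 in CFPAC1, where it was above HM13 in replicate 2, and 4.24 in HPAF2 replicate 2. INSIG2, an ER membrane protein of sterol sensing, had MYRF in all 4 libraries 2824 and 2537 bp from the gene in CFPAC1, with CFPAC1 folds of 4.26 and 3.61, and the largest positive log2 difference of the 46, 0.55 with a standard error of 0.20 (limma adjusted p = 0.967). YOD1, a p97-linked deubiquitinase, had a MYRF site in all 4 libraries that was nearer to C1orf116. USP25, a deubiquitinase, had MYRF inside the gene in both HPAF2 libraries with folds of 4.25 and 4.79. It had the lowest log2 difference of the 46, -0.34 with a standard error of 0.16 (limma adjusted p = 0.975). The log2 differences of TMEM129 and YOD1 were -0.18 and 0.23. For DNAJB12, an ER membrane co-chaperone, and UBE4A, a ubiquitin ligase, the CFPAC1 libraries placed their peaks at different positions, so in CFPAC1 the shared window does not stand for a shared site. In HPAF2 the 2 libraries had overlapping DNAJB12 peaks, with summits 11693 and 11989 bp from the gene and folds of 4.62 and 4.75. UBE4A had no HPAF2 summit. The log2 differences of DNAJB12 and UBE4A were 0.02 and -0.07.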
